A study of Mus musculus with 10 samples.

Results

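The 42 kinesin motor genes of the deposited expression tables were described across 4 materials of the mouse male germline. Members were the rows whose gene symbol is Kif followed by a number and letters, or Kifc followed by a number and letters, with pseudogene symbols left out, and they were 42 of 36806 rows. The row listed as Kif4b met this rule by its listed symbol, although its gene ID carries the current symbol Kif4-ps. Each row was followed in 8 mRNA libraries from C57BL/6 mice. The materials were whole testis at 3 days, whole testis at 8 days, and leptotene/zygotene spermatocytes and pachytene spermatocytes from mice of 70 days. Each material had 1 library from Ago4-/- mice, in which the gene for the Argonaute protein AGO4 is knocked out, and 1 from their Ago4+/+ littermates. The 2 small RNA libraries of pachytene cells were not analysed here.

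The authors deposited 4 tables, named for day 3, pre-meiotic, leptotene/zygotene and pachytene material, and each holds a level for condition 2 and a level for condition 1. The labels do not say which condition is which genotype, so values are given by condition number and no genotype is attached to them. The pre-meiotic table was read as whole young testis, with no age. Levels are FPKM, the number of sequenced fragments scaled to transcript length and to the mapped fragments of the library, so they can be set side by side between genes. The tables were normalized separately, so levels set across them are descriptions with no test. With 1 library per genotype and material there is no replicate error, and read depth is unknown because no counts were used.

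Kinesins are motor proteins that use ATP to walk along microtubules or to take subunits off microtubule ends. In dividing cells they build the spindle, move chromosomes and complete the separation of daughter cells, and in other cells they carry vesicles, organelles and RNA. In the male germline they also serve the growing sperm tail, because kinesin-II and related motors drive transport along the axoneme, the microtubule core of cilia and flagella. The members were sorted by known role into 12 division motors, 9 motors of the cilium and flagellum, 14 transport motors and 7 others.

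The material labels were checked against marker genes. Spermatid genes were high in both pairs of libraries from adult cells, and highest in the pair labelled leptotene/zygotene. The libraries labelled leptotene/zygotene held the spermatid genes Prm1, Prm2, Tnp1, Tnp2 and Acrv1 at a summed 53821 FPKM in condition 2 and 45503 FPKM in condition 1. The same sum was 8882 FPKM in condition 2 and 6758 FPKM in condition 1 at pachytene, and 60.2 and 63.0 FPKM in the pre-meiotic libraries. The 6 leptotene and zygotene markers were Dmc1, Sycp1, Sycp3, Prdm9, Meiob and Hormad1. As deposited, they summed to 107 and 128 FPKM in the libraries labelled leptotene/zygotene and 126 and 217 FPKM in the pre-meiotic libraries. This difference depended on the scale of the libraries. By the rule between materials given below, 0 of these 6 markers were higher and 2 were lower as deposited. With the scaled libraries described below, 1 was higher and 0 were lower. Because of the spermatid genes, the comparison of the libraries labelled leptotene/zygotene with pre-meiotic material is also given without them. It is given as pachytene over pre-meiotic material, which was added after the data were seen. The pachytene libraries hold spermatid genes too, so that comparison is not free of them. Of the somatic marker lists, 5 Sertoli cell genes summed to 1346 and 1127 FPKM at day 3, 638 and 602 FPKM in pre-meiotic material, 9.94 and 10.5 FPKM in the libraries labelled leptotene/zygotene and 25.2 and 19.0 FPKM at pachytene. Ago4, listed as Eif2c4, had 1.23 FPKM in condition 2 and 0.897 FPKM in condition 1 at day 3, 3.34 FPKM in condition 2 and 2.53 FPKM in condition 1 in the pre-meiotic table, 3.26 FPKM in condition 2 and 1.67 FPKM in condition 1 in the leptotene/zygotene table, and 12.1 FPKM in condition 2 and 4.37 FPKM in condition 1 at pachytene. Neither condition was at 0 in any table, and the genotypes were not read from these levels.

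Most kinesin genes were expressed in every material. At 1 FPKM or more in both libraries were 35 of 42 members at day 3, 37 in pre-meiotic material, 34 in the libraries labelled leptotene/zygotene and 37 at pachytene. Over all rows the same share was 44.2% at day 3, 43% in pre-meiotic material, 38.1% in the libraries labelled leptotene/zygotene and 39% at pachytene. Kif12 and Kif26b were the members below 1 FPKM in at least 1 library of all 4 tables. These 2 genes also had a mean under 1 FPKM over the 8 libraries, and the other 40 members passed that filter, which was applied to all counts between materials.

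The summed kinesin level was 631 and 760 FPKM in the day 3 libraries, 846 and 886 FPKM in the pre-meiotic libraries, 2222 and 2265 FPKM in the libraries labelled leptotene/zygotene, and 1498 and 1681 FPKM in the pachytene libraries. A few genes carried most of the later sums. No member reached 100 FPKM in both libraries at day 3, and Kif5b alone did so in pre-meiotic material. In the libraries labelled leptotene/zygotene 6 members did so (Kif2c, Kif2b, Kif17, Kif2a, Kif9 and Kif27), and at pachytene 5 did so (Kif2a, Kif9, Kif2b, Kif2c and Kif3a). The 6 highest members of each library made up 79.0% and 79.1% of the summed kinesin level in the libraries labelled leptotene/zygotene and 65.6% and 66.1% at pachytene.

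The mix of roles changed with the material. Motors of the cilium and flagellum made up 9.66% and 9.99% of the summed kinesin level at day 3, 14.9% and 14.7% in pre-meiotic material, 37.3% and 35.7% in the libraries labelled leptotene/zygotene, and 44.0% and 40.8% at pachytene. Transport motors took 28.5% and 39.3% at day 3 and 44.2% and 41.2% in pre-meiotic material, but 6.28% and 5.91% in the libraries labelled leptotene/zygotene and 6.90% and 6.30% at pachytene. Division motors held 49.3% in condition 2 and 35.8% in condition 1 at day 3, and 20.1% and 19.2% at pachytene. These shares are of sums within 1 library, so they do not depend on the scaling between tables.

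**Figure D1:**
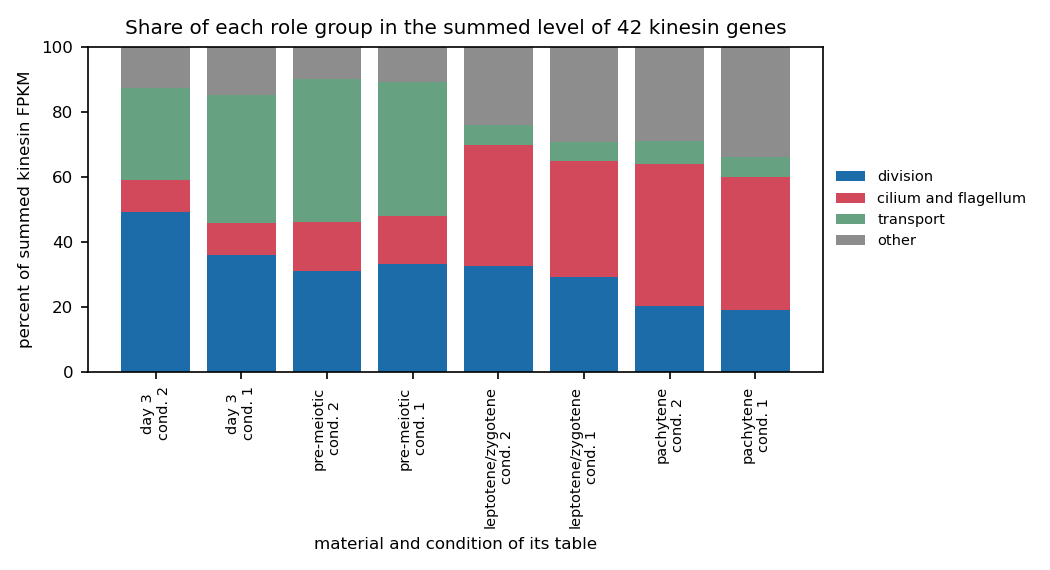
Share of each role group in the summed FPKM of the 42 kinesin genes, as stacked bars from 0 to 100% for the 8 libraries, by material and condition. The cilium and flagellum share is 9.66% and 9.99% in the day 3 libraries and 44.0% and 40.8% in the pachytene libraries, and the transport share is 6.90% and 6.30% at pachytene.

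By the mean of both libraries, 11 members were highest at day 3, 13 in pre-meiotic material, 7 in the libraries labelled leptotene/zygotene and 11 at pachytene. Of the 9 motors of the cilium and flagellum, 6 were highest at pachytene and 2 in the libraries labelled leptotene/zygotene, and Kif7 was highest in pre-meiotic material. Of the 14 transport motors, 4 were highest at day 3 and 7 in pre-meiotic material. The division motors were spread over all 4 materials.

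**Figure D2:**
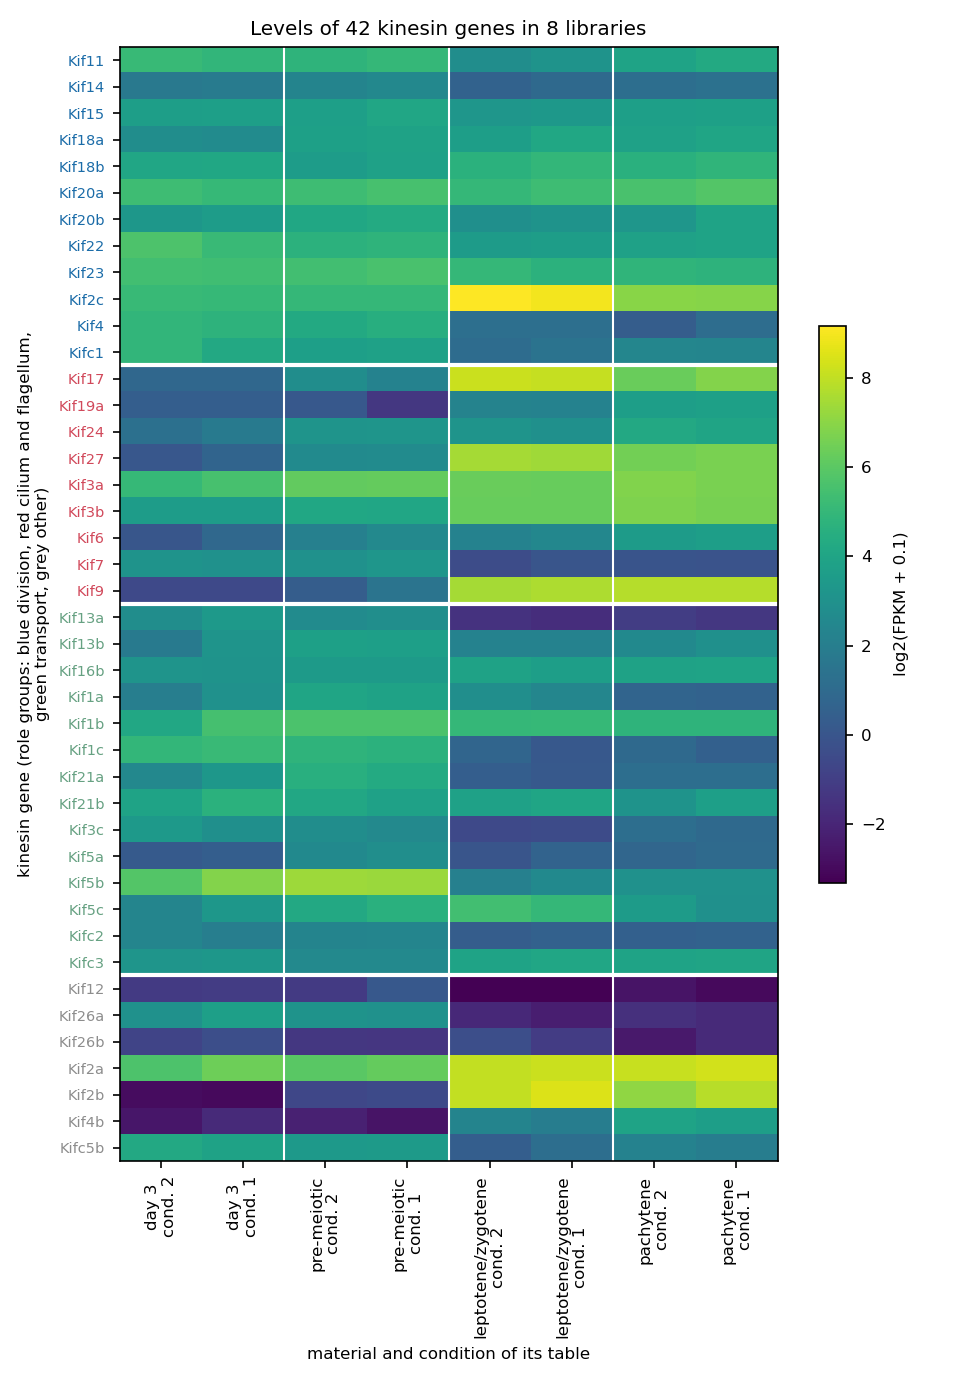
Level of each of the 42 kinesin genes as log2(FPKM + 0.1) in the 8 libraries, with genes in rows grouped by role and libraries in columns by material and condition. Kif2c, Kif2b, Kif17, Kif2a, Kif9 and Kif27 are at 100 FPKM or more in both libraries labelled leptotene/zygotene, where Kif13a, Kif26a and Kif12 are below 1 FPKM.

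Between neighbouring materials a gene was counted as higher when the lower of its 2 values in the later material, plus 0.1 FPKM, was at least 2 times the higher of its 2 values in the earlier material plus 0.1 FPKM. The ratio of those 2 values is called the gap fold here. A gene was counted as lower by the reverse rule. In bulk material such as this, fewer cells of a type and less RNA per cell cannot be told apart.

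From day 3 to pre-meiotic testis 7 of 40 kinesin genes were higher and 0 were lower. Over all 19025 rows with a mean of at least 1 FPKM, 7.45% were higher and 11.1% were lower. Of the 9 motors of the cilium and flagellum 4 were higher (Kif17, Kif24, Kif27 and Kif6), of the 14 transport motors 2 (Kif21a and Kif5a), of the 12 division motors 0 and of the 5 others 1 (Kif2b). The widest gap folds were 4.87 for Kif2b, 4.66 for Kif5a, 3.85 for Kif27, 2.55 for Kif17 and 2.49 for Kif24. Kif2b had 0.0313 and 0.0267 FPKM at day 3 and 0.539 and 0.601 FPKM in pre-meiotic testis. It passed the mean filter only through the adult libraries. Its gap fold here therefore rests on values below 1 FPKM, to which 0.1 FPKM was added. Without condition 1 of the day 3 table, the count of higher genes was 13, and over the 4 left-out libraries it was 8 to 13. Leaving out a library can only keep or widen a gap fold, so these runs cannot show how firm the count is. With scaled libraries Kif21a was no longer counted. Germ cell markers moved with these genes, since by the same rule 5 of 6 spermatogonia markers, 6 of 6 leptotene and zygotene markers, 5 of 6 markers of pachytene and later spermatocytes and 4 of 5 spermatid markers were higher in pre-meiotic testis. The part of these cells in the kinesin result was not tested.

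The widest differences lay between the libraries labelled leptotene/zygotene and pre-meiotic testis. There 10 of 40 kinesin genes were higher (Kif17, Kif19a, Kif27, Kif2a, Kif2b, Kif2c, Kif3b, Kif4b, Kif9 and Kifc3) and 18 were lower. The background was wide too, with 21.8% of all rows higher and 48.2% lower, so the share of kinesins in either direction was close to that of all rows. The roles split unevenly, with 5 of 9 motors of the cilium and flagellum higher and 1 lower, 1 of 14 transport motors higher and 9 lower, 1 of 12 division motors higher and 6 lower, and 3 of 5 others higher and 2 lower. The median log2 ratio of the library means was 2.16 for the cilium and flagellum group, -1.70 for the transport group and -0.90 for the division group, against -1.27 over all rows.

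Part of the count of lower genes followed the scale of the libraries. When each library was divided by its median over the 10413 rows at 1 FPKM or more in all 8 libraries, the median log2 ratio of all rows moved by 1.20 to -0.07. On that scale 15 kinesin genes were higher and 10 were lower, against 30.9% and 31.8% of all rows. All 10 higher genes were kept, and Kif16b, Kif18a, Kif18b, Kif3a and Kif5c joined them. The 8 genes no longer counted as lower were Kif11, Kif13b, Kif14, Kif1a, Kif20b, Kif22, Kif5a and Kifc2. By role, 6 of 9 motors of the cilium and flagellum were higher and 1 was lower on that scale, 3 of 14 transport motors were higher and 5 were lower, and 3 of 12 division motors were higher and 2 were lower.

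Without the libraries labelled leptotene/zygotene, in pachytene cells over pre-meiotic testis, the same 10 genes were higher and 13 were lower, against 22.5% and 42.4% of all rows. Again 5 of 9 motors of the cilium and flagellum were higher and 8 of 14 transport motors were lower, while 2 of 12 division motors were lower. With scaled libraries 15 kinesins were higher and 8 were lower, against 28.9% and 31.9% of all rows, and the median of all rows moved by 0.73. By role, with scaled libraries, 8 of 9 motors of the cilium and flagellum were higher and 1 was lower, 2 of 14 transport motors were higher and 5 were lower, and 2 of 12 division motors were higher and 1 was lower.

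Kif2b and its relatives Kif2a and Kif2c belong to the kinesin-13 family, whose members take tubulin off microtubule ends and do not walk. Kif2b, on chromosome 11 in a locus of 2.30 kb, had 0.0313 and 0.0267 FPKM at day 3, 0.539 and 0.601 FPKM in pre-meiotic testis, 261 and 366 FPKM in the libraries labelled leptotene/zygotene, and 139 and 232 FPKM at pachytene. Its gap fold over pre-meiotic testis was 373 in the libraries labelled leptotene/zygotene and 198 at pachytene, the widest of all members in both comparisons. Kif2c, known as MCAK and needed for correct attachment of chromosomes to the spindle, had 34.0 and 33.6 FPKM at day 3, 32.4 and 31.9 FPKM in pre-meiotic testis, 581 and 500.5 FPKM in the libraries labelled leptotene/zygotene, and 125 and 119 FPKM at pachytene. It was the only division motor counted as higher in either comparison with pre-meiotic testis as deposited, with a gap fold of 15.4 in the libraries labelled leptotene/zygotene and 3.67 at pachytene. Kif2a had 51.7 and 84.3 FPKM at day 3, 62.5 and 74.6 FPKM in pre-meiotic testis, 262 and 289 FPKM in the libraries labelled leptotene/zygotene, and 276 and 319 FPKM at pachytene. All 3 genes had both later pairs of libraries above both earlier pairs.

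Among the motors of the cilium and flagellum, Kif9, which is needed for normal beating of the mouse sperm tail, had 0.575 and 0.566 FPKM at day 3, 1.21 and 2.70 FPKM in pre-meiotic testis, 181 and 197 FPKM in the libraries labelled leptotene/zygotene, and 219.8 and 223 FPKM at pachytene. Kif17, a motor known in mouse spermatids to bind the transcription coactivator ACT, had 1.72 and 1.72 FPKM at day 3, 6.84 and 4.54 FPKM in pre-meiotic testis, 293 and 273 FPKM in the libraries labelled leptotene/zygotene, and 79.3 and 114 FPKM at pachytene. Kif27, a motor of motile cilia, had 0.949 and 1.54 FPKM at day 3, 6.23 and 6.35 FPKM in pre-meiotic testis, 178 and 167 FPKM in the libraries labelled leptotene/zygotene, and 92.9 and 102 FPKM at pachytene. In each of these 3 genes the 4 libraries from adult cells stood above the 4 libraries from young testis with no overlap. The gap folds of the libraries labelled leptotene/zygotene over pre-meiotic testis were 64.6 for Kif9, 39.4 for Kif17 and 25.8 for Kif27.

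The kinesin-II motors, which carry intraflagellar transport from the base to the tip of the axoneme, were already expressed in young testis. Kif3a had 32.9 and 46.0 FPKM at day 3, 72.8 and 75.4 FPKM in pre-meiotic testis, 80.3 and 77.1 FPKM in the libraries labelled leptotene/zygotene, and 114 and 103 FPKM at pachytene. Kif3b had 11.8 and 11.7 FPKM at day 3, 17.3 and 17.0 FPKM in pre-meiotic testis, 77.5 and 77.0 FPKM in the libraries labelled leptotene/zygotene, and 109 and 99.6 FPKM at pachytene. Kif3b was counted as higher in the libraries labelled leptotene/zygotene than in pre-meiotic testis with a gap fold of 4.42, whereas Kif3a was counted so only with scaled libraries. The authors' deposited table marks the pre-meiotic test of Kif3b as failed. Without members whose test is marked as failed, 9 kinesin genes were higher in that comparison. Kifap3, the adaptor that joins the kinesin-II motors to their cargo, had 17.2 and 17.7 FPKM at day 3, 15.2 and 16.1 FPKM in pre-meiotic testis, 131 and 130 FPKM in the libraries labelled leptotene/zygotene, and 74.6 and 80.6 FPKM at pachytene. Kif3c, another partner of Kif3a, had 10.2 and 7.44 FPKM at day 3, 6.86 and 5.91 FPKM in pre-meiotic testis, 0.589 and 0.623 FPKM in the libraries labelled leptotene/zygotene, and 2.23 and 1.82 FPKM at pachytene. Kif3b and Kif3c, both of which pair with Kif3a, thus differed from pre-meiotic testis in opposite directions in the adult libraries, although Kif3c was not counted as lower at pachytene with scaled libraries.

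The other motors of the cilium were lower in level. Kif19a, which shortens cilia from their tips, had 1.21 and 1.21 FPKM at day 3, 0.983 and 0.307 FPKM in pre-meiotic testis, 4.79 and 4.55 FPKM in the libraries labelled leptotene/zygotene, and 12.9 and 13.8 FPKM at pachytene. Kif24, which acts at the base of the cilium, had 2.34 and 3.51 FPKM at day 3, 8.90 and 8.96 FPKM in pre-meiotic testis, 8.88 and 7.61 FPKM in the libraries labelled leptotene/zygotene, and 18.4 and 15.7 FPKM at pachytene. Kif6 had 0.905 and 1.75 FPKM at day 3, 4.24 and 5.84 FPKM in pre-meiotic testis, 4.64 and 5.52 FPKM in the libraries labelled leptotene/zygotene, and 11.5 and 12.7 FPKM at pachytene. All 3 genes were highest at pachytene, with no overlap between the pachytene pair and any other pair. Kif7, a regulator of Hedgehog signalling at the tip of the cilium, went the other way, with 0.651 to 0.893 FPKM over the 4 libraries from adult cells and 7.86 to 9.39 FPKM over the 4 libraries from young testis.

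**Figure D3:**
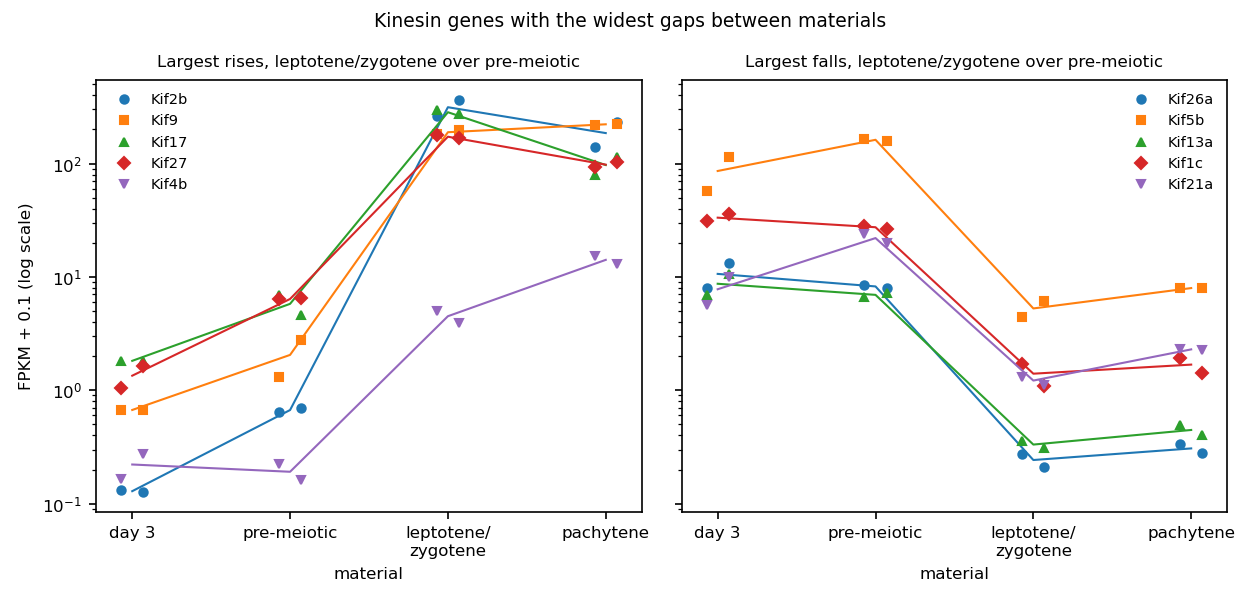
FPKM + 0.1 on a log scale in the 4 materials for the 5 kinesin genes with the widest gap folds in each direction between the libraries labelled leptotene/zygotene and pre-meiotic testis; points are libraries, condition 2 drawn left of condition 1, and lines join the means. Kif2b, Kif9, Kif17, Kif27 and Kif4b are higher in all 4 libraries from adult cells, and Kif26a, Kif5b, Kif13a, Kif1c and Kif21a are lower in them.

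Of the 14 transport motors, 5 were counted as lower in the libraries labelled leptotene/zygotene than in pre-meiotic testis both as deposited and scaled (Kif13a, Kif1c, Kif21a, Kif3c and Kif5b). Kif5b, the widely expressed heavy chain of conventional kinesin, had 56.8 and 115 FPKM at day 3, 165 and 159 FPKM in pre-meiotic testis, 4.32 and 6.03 FPKM in the libraries labelled leptotene/zygotene, and 7.87 and 7.87 FPKM at pachytene. It was the highest kinesin of both young materials, and its gap fold of pre-meiotic testis over the libraries labelled leptotene/zygotene was 25.9. Kif5c, a heavy chain best known from neurons, had 5.08 and 9.74 FPKM at day 3, 18.6 and 24.5 FPKM in pre-meiotic testis, 41.98 and 32.5 FPKM in the libraries labelled leptotene/zygotene, and 11.7 and 7.62 FPKM at pachytene. Kif5a, the remaining heavy chain, had 1.08 and 1.23 FPKM at day 3, 6.11 and 7.17 FPKM in pre-meiotic testis, 0.897 and 1.49 FPKM in the libraries labelled leptotene/zygotene, and 1.65 and 1.88 FPKM at pachytene. Kif5c was the highest of the 3 heavy chains in the libraries labelled leptotene/zygotene, while at pachytene the values of Kif5c and Kif5b overlapped. The light chain Klc1, which links these heavy chains to cargo, had 226 and 144 FPKM at day 3, 67.7 and 53.8 FPKM in pre-meiotic testis, 6.15 and 2.50 FPKM in the libraries labelled leptotene/zygotene, and 4.86 and 11.5 FPKM at pachytene.

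Kif1c, a carrier of vesicles, had 30.7 and 35.7 FPKM at day 3, 28.1 and 26.6 FPKM in pre-meiotic testis, 1.61 and 0.997 FPKM in the libraries labelled leptotene/zygotene, and 1.84 and 1.33 FPKM at pachytene. Kif13a, which carries endosomes, had 6.80 and 10.4 FPKM at day 3, 6.54 and 7.15 FPKM in pre-meiotic testis, 0.255 and 0.209 FPKM in the libraries labelled leptotene/zygotene, and 0.389 and 0.304 FPKM at pachytene. Kif21a, a kinesin best known from neurons, had 5.58 and 9.79 FPKM at day 3, 24.0 and 19.9 FPKM in pre-meiotic testis, 1.22 and 1.02 FPKM in the libraries labelled leptotene/zygotene, and 2.21 and 2.18 FPKM at pachytene. In these 3 genes no library from adult cells overlapped a library from young testis, and their gap folds of pre-meiotic testis over the libraries labelled leptotene/zygotene were 15.6, 18.7 and 15.1 for Kif1c, Kif13a and Kif21a. Kif26a, an unusual kinesin placed among the others, had the widest gap fold among the lower genes, 28.9, with 0.110 to 0.234 FPKM over the libraries from adult cells and 7.87 to 13.1 FPKM over those from young testis. Kif1a, a carrier of synaptic vesicle precursors in neurons, had 3.96 and 7.79 FPKM at day 3, 16.3 and 14.5 FPKM in pre-meiotic testis, 7.05 and 5.30 FPKM in the libraries labelled leptotene/zygotene, and 1.54 and 1.40 FPKM at pachytene. Kif16b, a motor of endosomes, stayed between 8.43 and 15.2 FPKM in all 8 libraries, and was counted as higher than pre-meiotic testis in both adult materials with scaled libraries. Kifc3, a minus-end motor, was the only transport motor counted as higher as deposited, with 15.4 and 16.8 FPKM in the libraries labelled leptotene/zygotene, against 5.81 and 5.72 FPKM in pre-meiotic testis. Markers of some somatic cell types moved with the lower transport motors. As deposited, 48.2% of all rows were lower in the libraries labelled leptotene/zygotene than in pre-meiotic testis. By the same rule 5 of 5 Sertoli and 5 of 5 Leydig genes were lower there. So were 4 of 4 myoid and smooth muscle genes, 4 of 4 endothelial genes and 5 of 6 spermatogonia markers. Of 4 macrophage genes 2 were lower and 1 was higher, and of 4 erythrocyte genes 0 were lower. With scaled libraries 5 Sertoli, 5 Leydig, 3 myoid and smooth muscle, 3 endothelial, 4 spermatogonia, 1 macrophage and 0 erythrocyte genes were lower. On that scale 31.8% of all rows were lower. The part of these cells in the result was not tested.

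The 12 division motors differed among themselves in adult germ cells. Kif23, a subunit of centralspindlin, which organises the spindle midzone and the bridge between daughter cells, stayed between 25.7 and 47.9 FPKM in all 8 libraries. Kif20a, also needed for cytokinesis, stayed between 31.6 and 57.7 FPKM. Kif15 stayed between 9.40 and 17.0 FPKM, and none of these 3 genes was counted as higher or lower between neighbouring materials, as deposited or scaled. Kif11, which pushes spindle poles apart, had 34.2 and 29.8 FPKM at day 3, 27.9 and 31.6 FPKM in pre-meiotic testis, 6.85 and 8.50 FPKM in the libraries labelled leptotene/zygotene, and 15.4 and 19.3 FPKM at pachytene. Kif22, a motor that binds chromosome arms, had 51.4 and 35.8 FPKM at day 3, 26.2 and 28.4 FPKM in pre-meiotic testis, 11.6 and 12.5 FPKM in the libraries labelled leptotene/zygotene, and 14.1 and 15.3 FPKM at pachytene. Kif4, a motor of condensed chromosomes and the only X-linked member, had 29.7 and 27.1 FPKM at day 3, 19.5 and 22.8 FPKM in pre-meiotic testis, 2.25 and 2.27 FPKM in the libraries labelled leptotene/zygotene, and 1.21 and 2.11 FPKM at pachytene. Kif4 was lower in both adult materials than in pre-meiotic testis, also with scaled libraries.

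The row listed as Kif4b ran opposite to Kif4. It had 0.0662 and 0.177 FPKM at day 3, 0.122 and 0.0604 FPKM in pre-meiotic testis, 4.95 and 3.86 FPKM in the libraries labelled leptotene/zygotene, and 15.2 and 12.9 FPKM at pachytene. Its locus in the tables spans 3.67 kb on chromosome 12, whereas that of Kif4 spans 104 kb on the X chromosome. A row that is close in sequence to another can share reads with it, so the split of reads between Kif4 and Kif4b is uncertain. The same holds for Kifc1 and Kifc5b, which had 2.07 and 2.60 FPKM and 1.22 and 2.16 FPKM in the libraries labelled leptotene/zygotene.

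Between pachytene cells and the libraries labelled leptotene/zygotene, 4 of 40 kinesin genes were higher (Kif19a, Kif3c, Kif4b and Kif6) and 4 were lower (Kif2c, Kif1a, Kif5c and Kif17). Of all rows 8.71% were higher and 5.22% were lower. The widest gap folds were 4.005 for Kif2c, 3.30 for Kif1a, 2.76 for Kif5c and 2.39 for Kif17 among the lower genes, and 2.66 for Kif19a, 2.65 for Kif3c, 2.57 for Kif4b and 2.06 for Kif6 among the higher genes. With scaled libraries, which moved the median of all rows by -0.39, only Kif3c of the higher genes was kept, and Kif27 joined the 4 lower genes. On that scale 3.49% of all rows were higher and 9.49% were lower. Without condition 1 of the leptotene/zygotene table, the higher genes numbered 7, but leaving out a library can only keep or widen a gap fold. Of the 5 spermatid genes 4 were also lower at pachytene by this rule, and Acrv1 was not. The ratio of the mean level of the libraries labelled leptotene/zygotene to the pachytene mean was 6.09 to 6.68 for Tnp2, Prm1, Tnp1 and Prm2, 1.40 for Acrv1, 4.43 for Kif2c, 4.20 for Kif1a, 3.85 for Kif5c, 2.93 for Kif17, 1.77 for Kif27 and 1.69 for Kif2b. It was 0.85 for Kif9 and 0.93 for Kif2a, and the part of spermatid RNA in these differences was not tested.

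The genes that work with kinesins were counted by the same rule, and the counts are to be read against the share of all rows, 21.8% higher and 48.2% lower in the libraries labelled leptotene/zygotene and 22.5% and 42.4% at pachytene, each over pre-meiotic testis. Of 12 intraflagellar transport genes 7 were higher and 1 was lower in the libraries labelled leptotene/zygotene than in pre-meiotic testis, and 9 were higher and 0 lower at pachytene than in pre-meiotic testis. Of 19 spindle and cytokinesis genes 3 were higher and 7 lower in the libraries labelled leptotene/zygotene, and 3 were higher and 2 lower at pachytene. Of 15 genes of cytoplasmic dynein and dynactin, the motor that walks the other way, 1 was higher and 4 were lower in the libraries labelled leptotene/zygotene, and 4 were higher and 4 lower at pachytene. Of 6 direct kinesin partners, which are 4 light chains, Kifap3 and the kinetochore motor Cenpe, 2 were higher and 1 was lower in the libraries labelled leptotene/zygotene, and 1 was higher and 1 lower at pachytene. With scaled libraries, in those labelled leptotene/zygotene, 11 intraflagellar transport genes were higher and 0 lower, 5 spindle genes higher and 3 lower, and 7 dynein and dynactin genes higher and 2 lower. On that scale 30.9% of all rows were higher and 31.8% were lower. Ift140 reached 307 and 322 FPKM and Ift172 reached 110 and 115 FPKM in the libraries labelled leptotene/zygotene, against 43.2 and 39.9 FPKM for Ift140 and 14.3 and 12.3 FPKM for Ift172 in pre-meiotic testis. Numa1, which organises spindle poles, had 7.27 and 6.23 FPKM in the libraries labelled leptotene/zygotene, against 63.7 and 65.0 FPKM in pre-meiotic testis.

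Promoter sequences from RefSeq (build GRCm38.p6, from 250 bases before to 50 bases after a gene's start) were matched by symbol to 33 of the 42 members, in 37 entries. The members without an entry were Kif13b, Kif19a, Kif20a, Kif21b, Kif4b, Kif5a, Kif5b, Kifc2 and Kifc3. The promoters were searched on both strands for 5 short motifs, each on its own, so matches of different motifs may overlap. A member was counted when any of its entries matched, whereas shares of all promoters are per entry, so these measures differ slightly. The CHR (TTTGAA), known from promoters of genes expressed late in the cell cycle, was found in 10 of 11 division members with an entry, in 1 of 8 cilium and flagellum members (Kif27), in 1 of 8 transport members (Kif1a) and in 2 of 6 others (Kif26b and Kifc5b). It was found in 17.9% of 32851 promoters. The cAMP response element (TGACGTCA), which CREM binds in spermatids, was found in Kif17, Kif18a and Kif5c, 3 of 33 members, and in 1.79% of all promoters. A half-site of the X-box (GTTGCCA), the site of RFX factors in many ciliary genes, was found in 6 of 33 members (Kif16b, Kif18a, Kif23, Kif24, Kif2a and Kif9) and in 4.38% of all promoters. The MYB core (AACNGNC) was found in 10 of 33 members and 32.8% of all promoters, and the E2F motif (TTNGCGC) in 3 of 33 members and 6.36% of all promoters. A match is a string of letters and does not show that a factor binds. A lack of match does not show that a site is absent, since strings that differ by 1 letter were not counted.

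Promoters are shown for 3 genes that were high in adult germ cells (Kif17, Kif9 and Kif2b) and for 2 division motors that carry the CHR (Kif23 and Kif11), read 5′ to 3′ on the gene's strand, with matches to the cAMP response element, the X-box half-site and the CHR on either strand in capitals. The Kif17 promoter (chr4:138262001-138262300, plus strand) holds a full cAMP response element, that of Kif9 (chr9:110476708-110477007, plus strand) an X-box half-site, and that of Kif2b (chr11:91577506-91577805, minus strand) none of the 3 motifs. Shortly after the cAMP response element, the Kif17 promoter also holds gttgccc. That string differs from the X-box half-site only in its last letter and was not counted. The Kif23 promoter (chr9:61946750-61947049, minus strand) holds a CHR and an X-box half-site, and that of Kif11 (chr19:37376132-37376431, plus strand) holds the CHR on the opposite strand.
Kif17: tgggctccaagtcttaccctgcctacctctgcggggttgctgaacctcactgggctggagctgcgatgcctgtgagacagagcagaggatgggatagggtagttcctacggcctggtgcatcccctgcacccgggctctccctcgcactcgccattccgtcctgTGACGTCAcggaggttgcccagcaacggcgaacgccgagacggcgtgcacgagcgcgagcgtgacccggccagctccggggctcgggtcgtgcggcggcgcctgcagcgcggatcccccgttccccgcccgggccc
Kif9: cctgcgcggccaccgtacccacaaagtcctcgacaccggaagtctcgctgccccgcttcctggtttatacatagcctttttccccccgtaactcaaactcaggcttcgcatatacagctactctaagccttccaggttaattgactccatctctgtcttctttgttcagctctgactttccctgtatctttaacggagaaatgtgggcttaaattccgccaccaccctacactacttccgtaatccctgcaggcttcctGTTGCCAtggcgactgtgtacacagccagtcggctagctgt
Kif2b: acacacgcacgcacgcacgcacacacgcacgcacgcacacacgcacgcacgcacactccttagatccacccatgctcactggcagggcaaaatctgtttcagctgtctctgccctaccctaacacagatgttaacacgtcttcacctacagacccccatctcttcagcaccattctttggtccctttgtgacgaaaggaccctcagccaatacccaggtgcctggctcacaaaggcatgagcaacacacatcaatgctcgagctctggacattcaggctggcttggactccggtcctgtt
Kif23: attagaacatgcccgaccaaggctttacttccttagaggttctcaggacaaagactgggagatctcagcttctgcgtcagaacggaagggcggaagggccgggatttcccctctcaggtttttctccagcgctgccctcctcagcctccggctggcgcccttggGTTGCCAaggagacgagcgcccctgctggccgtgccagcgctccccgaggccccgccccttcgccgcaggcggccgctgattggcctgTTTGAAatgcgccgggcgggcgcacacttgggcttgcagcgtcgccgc
Kif11: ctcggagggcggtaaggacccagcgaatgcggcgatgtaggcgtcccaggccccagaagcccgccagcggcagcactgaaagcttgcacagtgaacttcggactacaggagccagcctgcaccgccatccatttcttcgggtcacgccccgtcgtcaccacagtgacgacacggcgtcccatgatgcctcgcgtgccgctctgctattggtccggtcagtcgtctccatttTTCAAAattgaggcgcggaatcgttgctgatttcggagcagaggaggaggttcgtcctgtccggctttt

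Within each material the design asks whether the genotypes differ, and here this can be read only as condition 2 against condition 1. In the authors' deposited table for day 3, 10 of 40 tested kinesin genes were called at a q-value of at most 0.05, and all 10 were lower in condition 2. In that table the authors called 14.8% of all rows tested, 9.97% lower and 4.8% higher in condition 2. The called genes were 8 of the transport motors (Kif13a, Kif13b, Kif1a, Kif1b, Kif21a, Kif21b, Kif5b and Kif5c), the kinesin-II subunit Kif3a and the depolymerase Kif2a. No division motor was called, and the authors' test compares 2 libraries, not groups of animals.

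Kif1b, a carrier of mitochondria and synaptic vesicle precursors, had 17.7 FPKM in condition 2, against 45.0 FPKM in condition 1, a log2 fold of -1.35 in the authors' deposited table with an implied error of 0.15. The implied error was obtained by dividing the absolute log2 fold by the absolute test statistic of the authors' deposited table, and it stands for counting and modelling error only. Kif13b, a motor of endosomes and membrane vesicles, had 3.35 FPKM in condition 2, against 8.84 FPKM in condition 1, a log2 fold of -1.40 ± 0.30 (implied error) with a q-value of 6.77e-05 in the authors' deposited table. Kif5b had 56.8 FPKM in condition 2, against 115 FPKM in condition 1, a log2 fold of -1.01 ± 0.15 with a q-value of 2.06e-09 in the authors' deposited table. These are the 3 lowest log2 folds among the called kinesins of the day 3 table. The other 7 called genes had log2 folds of -0.98 (Kif1a), -0.94 (Kif5c), -0.81 (Kif21a), -0.73 (Kif21b), -0.71 (Kif2a), -0.61 (Kif13a) and -0.48 (Kif3a) in the authors' deposited table. Kif1a had 3.96 FPKM in condition 2 and 7.79 FPKM in condition 1, and Kif5c had 5.08 FPKM in condition 2 and 9.74 FPKM in condition 1. Kif21a had 5.58 FPKM in condition 2 and 9.79 FPKM in condition 1, and Kif21b, a kinesin best known from neurons, had 15.3 FPKM in condition 2 and 25.4 FPKM in condition 1. Among the 7 genes Kif2a stood at the highest levels, with 51.7 FPKM in condition 2 and 84.3 FPKM in condition 1. Kif13a had 6.80 FPKM in condition 2 and 10.4 FPKM in condition 1, and Kif3a had 32.9 FPKM in condition 2 and 46.0 FPKM in condition 1.

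Kinesins that were not called pointed both ways. The median of log2((condition 2 + 0.1)/(condition 1 + 0.1)) at day 3 was -0.67 over the 14 transport motors, 0.08 over the 12 division motors, -0.0016 over the 9 motors of the cilium and flagellum and -0.42 over the 7 others, against -0.11 over all 42 members and 0.02 over the rows tested. The highest value was 0.69 for Kifc1, a minus-end motor of the spindle, with 30.1 FPKM in condition 2 and 18.6 FPKM in condition 1, and its q-value in the authors' deposited table was 0.0779. Kif22 had 51.4 FPKM in condition 2 and 35.8 FPKM in condition 1, with a q-value of 0.208 in the authors' deposited table. Kif20b and Kif2b had no test at day 3. Of the direct partners, the light chains Klc1 and Klc3 were called higher in condition 2 in the authors' deposited table for day 3, so that Klc1 had 226 FPKM in condition 2 and 144 FPKM in condition 1 while Kif5b was lower in condition 2. Of the other lists at day 3, the authors' deposited table called 1 of 12 intraflagellar transport genes higher and 3 lower, 3 of 19 spindle genes higher and 1 lower, and 1 of 15 dynein genes higher and 0 lower in condition 2. These counts are to be read against the 4.8% of all tested rows called higher and 9.97% called lower in that table.

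Locus span and some marker genes moved with the day 3 difference. Among tested rows with a mean of at least 1 FPKM, sorted by the span of the locus in the tables, the authors' deposited table called 24.8% of 5111 rows that span 60 kb or more lower in condition 2, 12.7% of 5145 rows of 20 to 60 kb and 3.39% of 7530 rows under 20 kb. Of the kinesins in these classes 7 of 18, 3 of 15 and 0 of 5 were called lower. The median log2 ratio of all rows ran from 0.24 under 20 kb to -0.25 at 60 kb and over. In the other 3 tables the called share was 0.574% to 1.74% of each span class, lower in condition 2. The 6 spermatogonia markers summed to 43.4 FPKM in condition 2 and 72.1 FPKM in condition 1 at day 3, and 3 of them were called lower in condition 2 in the authors' deposited table. Also called lower were 2 of 6 leptotene and zygotene, 2 of 5 Leydig, 1 of 5 Sertoli and 1 of 4 endothelial genes. So were 1 of 4 myoid and smooth muscle genes and 1 of 6 markers of pachytene and later spermatocytes. Called higher were 1 Leydig, 1 myoid and smooth muscle, 1 macrophage and 1 erythrocyte gene. The part of locus span and of these cell types in the kinesin result was not tested.

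**Figure D4:**
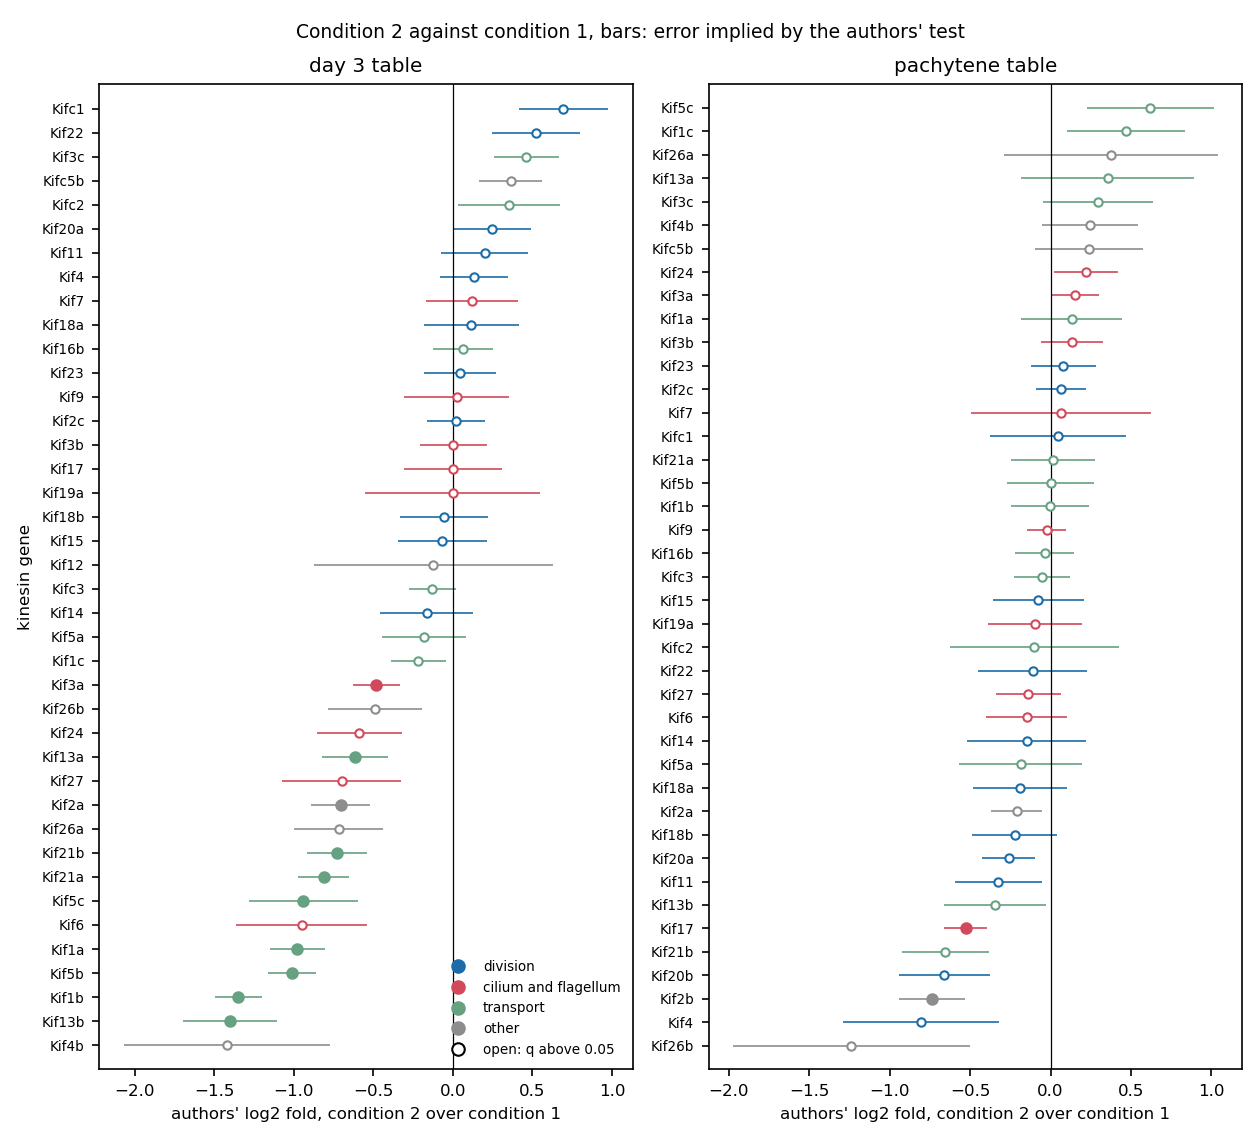
Log2 fold of condition 2 over condition 1 from the authors' deposited tables for day 3 (left) and pachytene (right), 1 point per kinesin gene with a value, coloured by role, filled where the q-value is at most 0.05, with bars of the implied error. At day 3 the 10 filled points are all below 0 and 8 of them are transport motors, and at pachytene the filled points are Kif17 and Kif2b.

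In pre-meiotic testis 0 of 40 tested kinesin genes were called in the authors' deposited table, where 1.15% of all tested rows were called, and 4 had an unadjusted p-value under 0.05. The share of all rows under that unadjusted p-value is not given here, so these 4 genes are not read as a result about kinesins. Kif3b and Kif4b had no test there, that of Kif3b being marked as failed in the authors' deposited table. None of the 10 genes called at day 3 was called there. Kif5b had 165 FPKM in condition 2 and 159 FPKM in condition 1, and Kif1b had 49.4 FPKM in condition 2 and 50.6 FPKM in condition 1. Kif13b had 13.8 FPKM in condition 2 and 13.3 FPKM in condition 1. Whether the day 3 and pre-meiotic differences differ from each other was not tested. The median implied error over the tested kinesins was 0.27 at day 3 and 0.16 in the pre-meiotic table. The q-values of Kif15, with 13.3 FPKM in condition 2 and 17.0 FPKM in condition 1, and of Kif21a, with 24.0 FPKM in condition 2 and 19.9 FPKM in condition 1, were 0.153 and 0.116 in the authors' deposited table.

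In the libraries labelled leptotene/zygotene 0 of 39 tested kinesin genes were called in the authors' deposited table, where 2.14% of all tested rows were called, and 6 had an unadjusted p-value under 0.05. For these 6 genes too, the share of all rows under that unadjusted p-value is not given here. The nearest was Kif2b, with 261 FPKM in condition 2 and 366 FPKM in condition 1 and a q-value of 0.0712 in the authors' deposited table. Kif12, Kif13a and Kif26a had no test there. The light chain Klc2 was called lower in condition 2 in the authors' deposited table, at 28.1 FPKM in condition 2 and 45.9 FPKM in condition 1.

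At pachytene 2 of 41 tested kinesin genes were called in the authors' deposited table, both lower in condition 2. In that table, of all tested rows, 1.63% were called and 1.01% were called lower in condition 2. Kif17 had 79.3 FPKM in condition 2, against 114 FPKM in condition 1, a log2 fold of -0.53 ± 0.13 (implied error) with a q-value of 0.0101 in the authors' deposited table. Kif2b had 139 FPKM in condition 2, against 232 FPKM in condition 1, a log2 fold of -0.74 ± 0.21 with a q-value of 0.0272 in the authors' deposited table. For Kif2b the ratio was below 1 in both adult tables, whereas Kif17 had 293 FPKM in condition 2 and 273 FPKM in condition 1 in the libraries labelled leptotene/zygotene. Neither q-value of the authors' deposited table is under 0.01.

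Other kinesins that were high in adult germ cells had closer values in the 2 conditions at pachytene. Kif9 had 219.8 FPKM in condition 2 and 223 FPKM in condition 1, and Kif27 had 92.9 FPKM in condition 2 and 102 FPKM in condition 1. Kif2c had 125 FPKM in condition 2 and 119 FPKM in condition 1. The 5 spermatid markers summed to 8882 FPKM in condition 2 and 6758 FPKM in condition 1, so their sum was higher where Kif17 and Kif2b were lower, although Acrv1 alone had 116 FPKM in condition 2 and 197 FPKM in condition 1. The 4 macrophage genes found summed to 45.3 FPKM in condition 2 and 4.86 FPKM in condition 1, of which H2-Ab1 alone had 43.5 FPKM in condition 2 and 3.35 FPKM in condition 1, while Csf1r had 0.189 FPKM in condition 2 and 0.396 FPKM in condition 1. The 4 myoid and smooth muscle genes summed to 25.9 FPKM in condition 2 and 11.0 FPKM in condition 1. The part of these cell types in the result was not tested. Cenpe, the kinetochore motor named outside the Kif series, was called lower in condition 2 at pachytene in the authors' deposited table, with 18.2 FPKM in condition 2, against 33.4 FPKM in condition 1.

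The remaining members are given by range. Of the division motors, Kif14 lay between 1.41 and 5.65 FPKM, Kif18a between 6.41 and 17.2 FPKM, Kif18b between 12.0 and 31.1 FPKM and Kif20b between 7.37 and 19.9 FPKM over the 8 libraries. Of the transport motors, Kif1b lay between 17.7 and 50.6 FPKM, Kif13b between 3.35 and 13.8 FPKM, Kif21b between 8.47 and 25.4 FPKM and Kifc2 between 1.17 and 5.14 FPKM. Kif12 lay between 0 and 0.970 FPKM and Kif26b between 0.0781 and 0.701 FPKM. The locus of Kif18b in the tables overlaps 10 other rows, that of Kif17 overlaps Sh2d5 and that of Kif3a overlaps Il4. Nothing in the labels' protocols marks the libraries as stranded, and reads of overlapping genes on opposite strands then cannot be separated.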

How the data were processed

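The 8 mRNA libraries were prepared with Illumina's TruSeq kit, per the labels' protocols. Cuffdiff, Cufflinks 1.1.0, Bowtie 0.12.7 and TopHat 1.3.0 are named in the submitters' processing notes, with the genome build not given in the sources used here. The authors deposited 4 tables with FPKM per condition, a log2 fold change and a test statistic (both treated as a score, since the log2 column holds extreme values for infinite ratios), a p-value and a q-value, per the file headers. These were copied and not recomputed. Rows the tables mark as failed or not tested were left out of counts of called genes.

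From the FPKM values, ratios with a pseudocount of 0.1 FPKM, role group sums, counts at 1 FPKM and gap folds over 2 libraries against 2 were computed with Python 3.11.15 and pandas 2.3.3. An exact permutation test of 2 against 2 libraries cannot go below p = 0.333, so none was used. Members given with all values were those called at a q-value of at most 0.05, the 3 highest per table and up to 5 per direction between neighbouring materials, and other members named were chosen after their values were seen. The members and lists were chosen with earlier results of these data known.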

Additional observations from a re-analysis of the deposited data

How the results depend on the processing

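Of 104 values recomputed under another setting, 81 were labelled the same and 23 were labelled moved. A count was labelled the same when it stayed within 1.5 times the main count. That label therefore covers real changes. In the libraries labelled leptotene/zygotene over pre-meiotic testis, 10 higher genes became 15 with scaled libraries, labelled the same. The median log2 ratio of condition 2 over condition 1 over the 42 members in the leptotene/zygotene table, for which no test was made, was -0.07 as deposited. With scaled libraries it was 0.0063, a change of sign that was also labelled the same. At an unadjusted p-value under 0.05, 16 kinesin genes passed at day 3, 4 in pre-meiotic testis, 6 in the libraries labelled leptotene/zygotene and 4 at pachytene. The share of all rows that passed this unadjusted threshold is not given here, so these counts do not show an excess among kinesins. At q of at most 0.1, 1 gene was called in the libraries labelled leptotene/zygotene, and at q of at most 0.01, 0 were called at pachytene. In pre-meiotic testis over day 3, the higher genes numbered 13 with a gap of 1.5 times, 3 with a gap of 3 times and 4 with a pseudocount of 1 FPKM, and 8 to 13 when each library was left out in turn. Leaving out a library can only keep or widen a gap fold, so counts from such runs cannot show how firm a count is. The lower genes numbered 1 with a gap of 1.5 times, and 0 to 1 when each library was left out. In the libraries labelled leptotene/zygotene over pre-meiotic testis, the lower genes numbered 11 with a mean of at least 5 FPKM and 10 with scaled libraries. In pachytene cells over the libraries labelled leptotene/zygotene, the higher genes numbered 9 with a gap of 1.5 times, 0 with a gap of 3 times, 2 with a pseudocount of 1 FPKM, 1 with a mean of at least 5 FPKM, 1 with scaled libraries, and 5 to 7 when each library was left out, and the lower genes numbered 2 with a gap of 3 times. In pachytene cells over pre-meiotic testis, scaled libraries gave 8 lower genes. The cause of these moves was not tested. Depth is unknown, 1 library stands for each genotype and material, and no paired analysis was possible because the conditions carry no replicate or animal number.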
